A study of Homo sapiens with 21 samples.

Results

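The BCL2 family decides whether a cell keeps its mitochondrial outer membrane closed, and 10 of its genes are described here in HepG2 cells after 6 h in caffeine: BMF, BCL2L11, BBC3, PMAIP1, BID, BAD, BAX, BAK1, BCL2L1 and MCL1. The members were taken by gene symbol, and all 10 of 10 listed were found among the 37637 features of the count table. The list was chosen by the level of BMF, which had already been seen to rise with dose in these libraries, so its values are given as a description with no test. The other 9 members were chosen with earlier results of these data known, and each was tested within a fit of all genes.

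Proteins of the family share BCL2 homology (BH) domains. BAX and BAK1 are the effectors that form pores in the outer membrane, after which cytochrome c leaves the mitochondrion and caspases are activated. BCL2L1 (whose long form is BCL-xL) and MCL1 are guardians that hold the effectors in check. The remaining 6 members are BH3-only proteins, which report stress by binding guardians or effectors: BMF is held by dynein light chain and is released by loss of attachment to the matrix, BCL2L11 (BIM) responds to growth factor loss, BBC3 (PUMA) and PMAIP1 (NOXA) are induced by several kinds of stress, BID links death receptors to mitochondria, and BAD is held by 14-3-3 proteins in cells that receive survival signals. The liver depends on both guardians, and hepatocytes need BID to die after strong signalling through death receptors.

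HepG2 is an established human liver cancer line of epithelial shape. Cells were kept for 6 h in fresh medium without serum that held caffeine, a methylxanthine that blocks adenosine receptors and, at high doses, phosphodiesterases, at 0, 0.01, 0.1, 1, 10, 100 or 1000 µM. Each of the 7 groups had 3 libraries, stated to be biological replicates, and the 0 µM group received the same medium without caffeine. All groups were therefore without serum, and all came from 1 line. The series' design text gives a different substance for the control, whereas the label of each control sample reads caffeine at 0 µM, and the labels were followed.

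Levels are CPM, a gene's reads as a share of the library, adjusted by TMM factors, which assume that most genes are equal between libraries. Total counts ran from 28043623 to 40827833 over the 21 libraries, so that 3 counts, the limit that a count of 0 allows, equal 0.0735 to 0.107 CPM for counting error only. None of the 10 members was at 0 in any library. All 10 members passed the filter on low counts, and PMAIP1 reached the filter level of 0.308 CPM in 17 of the 18 libraries below 1000 µM. The liver genes ALB (4745 to 7145 CPM) and AFP (1963 to 3779 CPM) were high in every library, whereas the leukocyte genes PTPRC and CD3E had at most 1 count, the fibroblast gene COL1A1 at most 6 and COL1A2 none. Of 8 liver markers, APOB rose at 1000 µM against 0 µM and AFP and APOA1 fell, that is 1 and 2. Over all genes tested, 20.6% were higher and 20.6% lower in that comparison. The share of counts from the mitochondrial genome ran from 4.95% to 14.2%, with 6.94% to 7.86% at 0 µM and 6.94% to 10.3% at 1000 µM. In bulk RNA, fewer cells of a kind and less RNA per cell cannot be told apart.

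The regions before the start sites of BMF, BCL2L11 and BAX are shown because BMF heads the list and the other 2 had the smallest adjusted p of the tested members at 1000 µM. Each line gives the 250 bases before a RefSeq start site (GRCh38.p14), 5′ to 3′ on the strand of the gene. For BMF this is chr15:40108880-40109129 on the minus strand, for BCL2L11 chr2:111120664-111120913 on the plus strand and for BAX chr19:48954625-48954874 on the plus strand. Capitals mark 3 motifs searched on both strands: GTAAACA, bound by FOXO factors; CACGTG, the E-box; and GCGTG, the core of the element bound by the aryl hydrocarbon receptor (AHR).
BMF: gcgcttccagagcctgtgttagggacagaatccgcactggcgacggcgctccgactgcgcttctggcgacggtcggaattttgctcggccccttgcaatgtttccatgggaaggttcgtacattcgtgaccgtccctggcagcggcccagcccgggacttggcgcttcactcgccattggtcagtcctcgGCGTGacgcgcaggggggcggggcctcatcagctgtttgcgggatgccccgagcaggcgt
BCL2L11: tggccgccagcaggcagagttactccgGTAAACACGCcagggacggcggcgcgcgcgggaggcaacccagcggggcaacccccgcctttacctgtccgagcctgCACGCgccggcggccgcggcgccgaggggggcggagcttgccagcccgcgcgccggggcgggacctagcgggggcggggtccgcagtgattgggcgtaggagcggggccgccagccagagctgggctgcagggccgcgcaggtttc
BAX: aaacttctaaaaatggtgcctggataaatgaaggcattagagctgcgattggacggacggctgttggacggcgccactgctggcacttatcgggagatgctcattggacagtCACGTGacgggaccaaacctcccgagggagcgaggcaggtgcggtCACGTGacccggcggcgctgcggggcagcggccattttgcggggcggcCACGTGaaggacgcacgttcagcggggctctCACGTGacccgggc
In the 300-base windows that also hold the first 50 transcribed bases, the FOXO element was in the BCL2L11 region, at -223 from the start, and in no other of the 9 members found in the promoter table. This heptamer was in 3.42% of 35116 promoters of that length. The last base pairs of that element run into a reverse AHR core at -218, so the capitals there show a pair of overlapping motifs. The BAX region held 4 E-boxes, at -138, -93, -45 and -14, a number reached by 5 of the 35116 promoters (0.0142%), and 7.26% held at least 1. The BMF region held 1 AHR core at -60, a short motif that was in 36.5% of promoters. Among the 9 members found, 6 had this core, in 8 of their 16 windows. Some windows of a gene overlap, so the same site of BID, and likewise that of BAD, is counted more than once. The share of 36.5% is per window and is not a share of genes. The BCL2L11 region held another reverse AHR core at -146. BMF has a second RefSeq start, whose window held none of the motifs. TGACGTCA, the full cAMP response element, was in 1.85% of promoters and in 0 of the members' 16 windows. A match is a description of the letters and shows neither binding nor a cause.

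BMF was low in the absence of caffeine and highest at the top dose. Its level at 0 µM was 5.22, 5.28 and 5.74 CPM in libraries 1, 2 and 3. At 0.01 µM it was 5.11, 5.86 and 5.76 CPM, at 0.1 µM 5.68, 6.71 and 6.00 CPM, and at 1 µM 5.83, 5.84 and 4.97 CPM. These 3 doses overlapped the control libraries. At 10 µM the values were 6.92, 7.66 and 6.28 CPM, at 100 µM 10.7, 10.9 and 11.5 CPM and at 1000 µM 52.3, 46.2 and 47.2 CPM. From 10 µM upward all 3 libraries at each dose lay above all 3 controls. At 10, 100 and 1000 µM, 45.8%, 43% and 53.2% of all genes tested separated from the controls in 1 direction or the other. The same shares apply wherever another member is said below to separate from the controls. The groups at 10, 100 and 1000 µM did not overlap each other. No share over all genes is given for doses that did not overlap each other, or for a dose that lay beyond every other library. Mean levels were 5.41 ± 0.29 CPM (SD, n = 3) at 0 µM, 11 ± 0.41 at 100 µM and 48.6 ± 3.3 at 1000 µM. Fitted fold changes against 0 µM were 2.03 at 100 µM and 8.97 at 1000 µM (log2 1.02 and 3.16), and 1.28 at 10 µM. Among 13838 tested genes with a mean of at least 1 CPM, the log2 fold change of BMF at 1000 µM ranked 11. BMF was chosen for its rise with dose, so this rank is only a description. Counts per library were 143 to 244 below 100 µM, 367 to 372 in the 100 µM group, and 1490 to 1875 in the 1000 µM group. The BMF gene (ENSG00000104081.14, chr15:40087890-40108892, minus strand, GRCh38) shares 8.46% of its exon bases with BMF-AS1 on the opposite strand, and whether the counting used strand is not given in the sources used here.

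**Figure D1:**
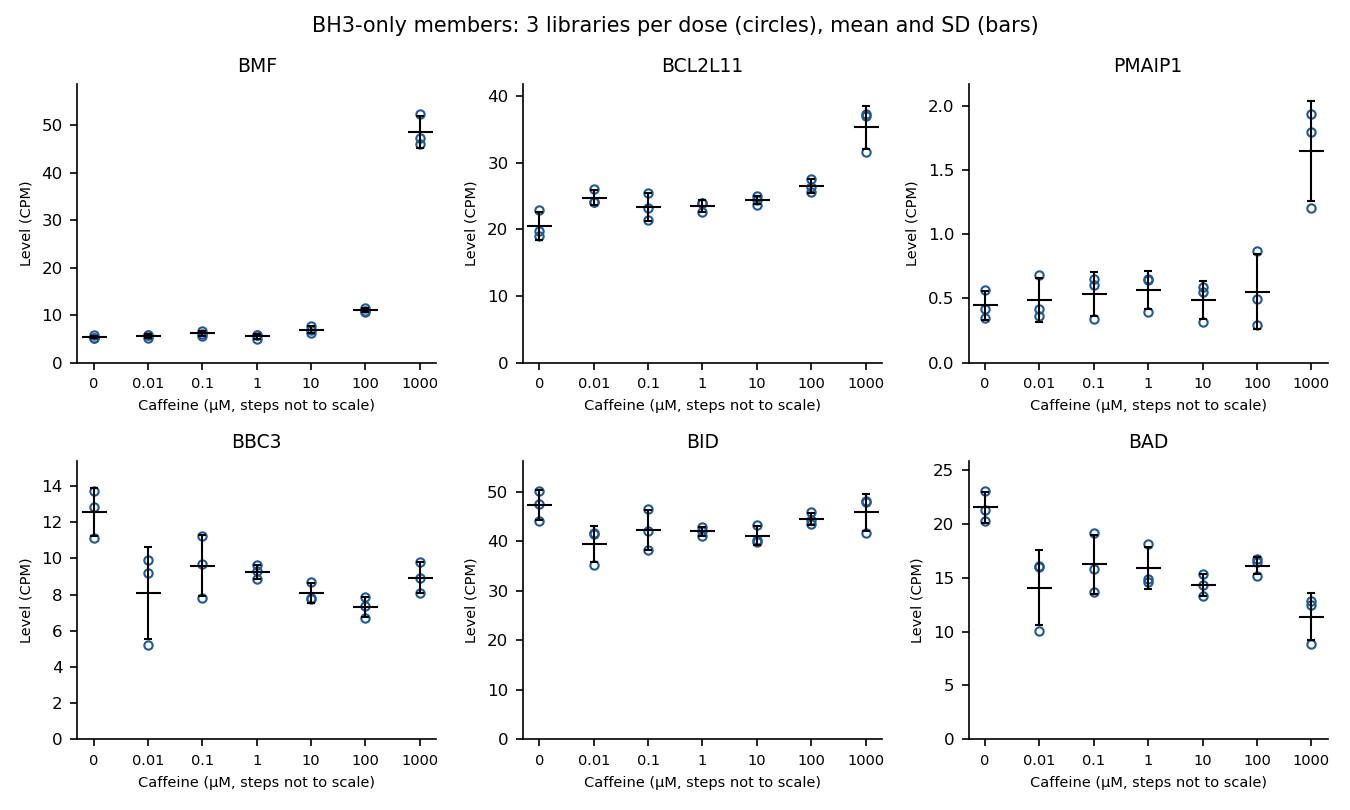
Level (CPM) of the 6 BH3-only members against caffeine dose (µM, equal steps): circles are the 3 libraries per dose, bars the mean and SD. The mean of BMF is 5.41 CPM at 0 µM and 48.6 CPM at 1000 µM, BCL2L11 and PMAIP1 are highest at 1000 µM, and BBC3 and BAD are highest at 0 µM.

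Besides BMF, the BH3-only genes BCL2L11 and PMAIP1 were higher at 1000 µM than at 0 µM, each by less than BMF. BCL2L11 encodes BIM, which binds all guardians. The controls had 19.7, 19.0 and 22.9 CPM, the libraries at 100 µM had 25.6, 26.3 and 27.6 CPM, and those at 1000 µM had 37.1, 31.6 and 37.2 CPM. All libraries at both doses lay above all controls, where 43% and 53.2% of all genes separated from the controls in either direction. The 3 at 1000 µM lay above every other library. Between 0.01 and 10 µM the 12 libraries ran from 21.4 to 26.1 CPM, and those at 0.1 and 1 µM overlapped the controls. At 1000 µM BCL2L11 rose 1.72-fold (log2 0.78 ± 0.09 SE, n = 3 per group, adjusted p = 6.02e-06 by the quasi-likelihood test of edgeR and the method of Benjamini and Hochberg), and this call held in each of the 6 fits that left out 1 library of the groups compared. At 100 µM it rose by 0.37 on the log2 scale (edgeR adjusted p = 0.0319), a call that was lost in 5 of 6 fits with 1 library left out (adjusted p up to 0.155). The gene (ENSG00000153094.23, chr2:111119378-111168447, plus strand) shares 10.9% of its exon bases with the noncoding gene MIR4435-2HG on the opposite strand, which fell by 0.36 on the log2 scale at 1000 µM (edgeR adjusted p = 0.0109).

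PMAIP1 was the scarcest member. It encodes NOXA, which binds MCL1. Counts per library were 10 to 28 below 1000 µM and 41, 73 and 61 at 1000 µM. The level was 0.569, 0.418 and 0.351 CPM at 0 µM and 1.20, 1.80 and 1.93 CPM at 1000 µM. The 3 libraries at 1000 µM lay above every other library, while those at 100 µM, at 0.495, 0.292 and 0.870 CPM, spread across the controls. PMAIP1 rose 3.67-fold at 1000 µM (log2 1.88 ± 0.38 SE, 95% interval 1.08 to 2.67, edgeR adjusted p = 0.00078) and kept this call in all 6 fits with 1 library left out.

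BBC3, BAD and BID were at their highest mean level in cells without caffeine. BBC3 encodes PUMA, and the controls had 13.7, 12.9 and 11.1 CPM. Its level was 7.37, 7.85 and 6.71 CPM at 100 µM, and at 1000 µM it was 9.80, 8.10 and 8.91 CPM. Every library from 10 µM upward lay below every control, where 45.8%, 43% and 53.2% of all genes separated at 10, 100 and 1000 µM. But the mean at 1000 µM, 8.94 ± 0.85 CPM (SD, n = 3), was above that at 100 µM, 7.31 ± 0.57 CPM. BBC3 fell 1.41-fold at 1000 µM (log2 -0.49 ± 0.18 SE, edgeR adjusted p = 0.0324). This call was lost without library 1 or 2 at 0 µM (adjusted p = 0.114 and 0.0807) and without library 2 or 3 at 1000 µM (0.121 and 0.0831), and it was lost when no filter on low counts was used (0.0606).

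BAD, which binds BCL2L1, was 23.1, 21.3 and 20.2 CPM in the controls. It was 16.5, 16.8 and 15.2 CPM with 100 µM, and with 1000 µM it was 12.8, 12.5 and 8.84 CPM. The libraries of these 3 doses did not overlap. Mean BAD was 21.5 CPM at 0 µM and 14.1, 16.2, 15.9 and 14.3 CPM at 0.01, 0.1, 1 and 10 µM. With 100 µM the mean was 16.1 CPM, so part of the fall against 0 µM was present at the lowest doses. BAD fell 1.89-fold at 1000 µM (log2 -0.92 ± 0.17 SE, edgeR adjusted p = 0.000408), and the call held in all 6 fits with 1 library left out. BAD shares 23.7% of its exon bases with GPR137 on the opposite strand, whose log2 change at 1000 µM was -0.26 (edgeR adjusted p = 0.398).

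BID, the member that caspase-8 cleaves, was 50.2, 47.6 and 44.1 CPM at 0 µM and 41.6, 48.1 and 48.0 CPM at 1000 µM. These groups overlapped, and a log2 difference of -0.04 (95% interval -0.23 to 0.14, edgeR adjusted p = 0.722) did not pass. In the 0.01 µM group, library 1 had the lowest BBC3 (5.18 CPM) and the lowest BID (35.3 CPM) of all 21 libraries, and its BAD (10.0 CPM) was the lowest below 1000 µM. That library also had 11.7% of its counts from the mitochondrial genome and stood apart from the rest on the third principal component, and the part of these in its values was not tested.

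The effectors parted from each other. BAX was 109.6, 108 and 82.2 CPM in the controls. With 10 µM it was 56.1, 60.3 and 64.3 CPM, with 100 µM it was 62.3, 63.9 and 55.8 CPM, and with 1000 µM it was 47.9, 45.9 and 39.0 CPM. From 10 µM upward every library lay below every control, where 45.8%, 43% and 53.2% of all genes separated at 10, 100 and 1000 µM. The 3 libraries at 1000 µM were below the other 18. Mean BAX was 100.1 CPM at 0 µM and 68.8, 83.0 and 70.9 CPM at 0.01, 0.1 and 1 µM. BAX fell 2.26-fold at 1000 µM (log2 -1.18 ± 0.14 SE, edgeR adjusted p = 7.11e-06) and kept the call in all 6 fits with 1 library left out. Among the lower doses, library 3 at 0.1 µM had 101 CPM of BAX, next to the controls, and on the first principal component this library also lay with the 3 controls at the low end. BAK1, which can form pores without BAX, was 46.3, 41.8 and 32.5 CPM at 0 µM and 36.9, 44.9 and 32.1 CPM at 1000 µM. The groups overlapped, with a log2 difference of -0.08 (95% interval -0.38 to 0.22, edgeR adjusted p = 0.688).

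The guardians also differed. MCL1, a protein of short half-life, was 129, 132 and 138 CPM in the controls. With 100 µM it was 157, 150 and 139 CPM, and with 1000 µM it was 163, 207 and 205 CPM. The 3 libraries at 1000 µM were the highest of the 21. MCL1 rose 1.44-fold at 1000 µM (log2 0.53 ± 0.12 SE, edgeR adjusted p = 0.00246), a call that held in all 6 fits with 1 library left out. BCL2L1 was 340, 330 and 328 CPM at 0 µM and 322, 274 and 286 CPM at 1000 µM. All 3 libraries at 1000 µM were below all 3 controls, where 53.2% of all genes separated in either direction. Yet the log2 difference of -0.18 did not pass (95% interval -0.45 to 0.10, edgeR adjusted p = 0.291). The widest spread of BCL2L1 was at 1 µM, with 286, 337 and 468 CPM, and the library at 468 CPM had the highest mitochondrial share, 14.2%. Exons of BCL2L1 overlap the antisense gene ABALON over 43.0% of their bases, and ABALON had a log2 change of 0.09 at 1000 µM (edgeR adjusted p = 0.685). The counts are per gene, so the long and short splice forms of BCL2L1 and MCL1 and the forms of BCL2L11, which differ in their effect on survival, are pooled.

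**Figure D2:**
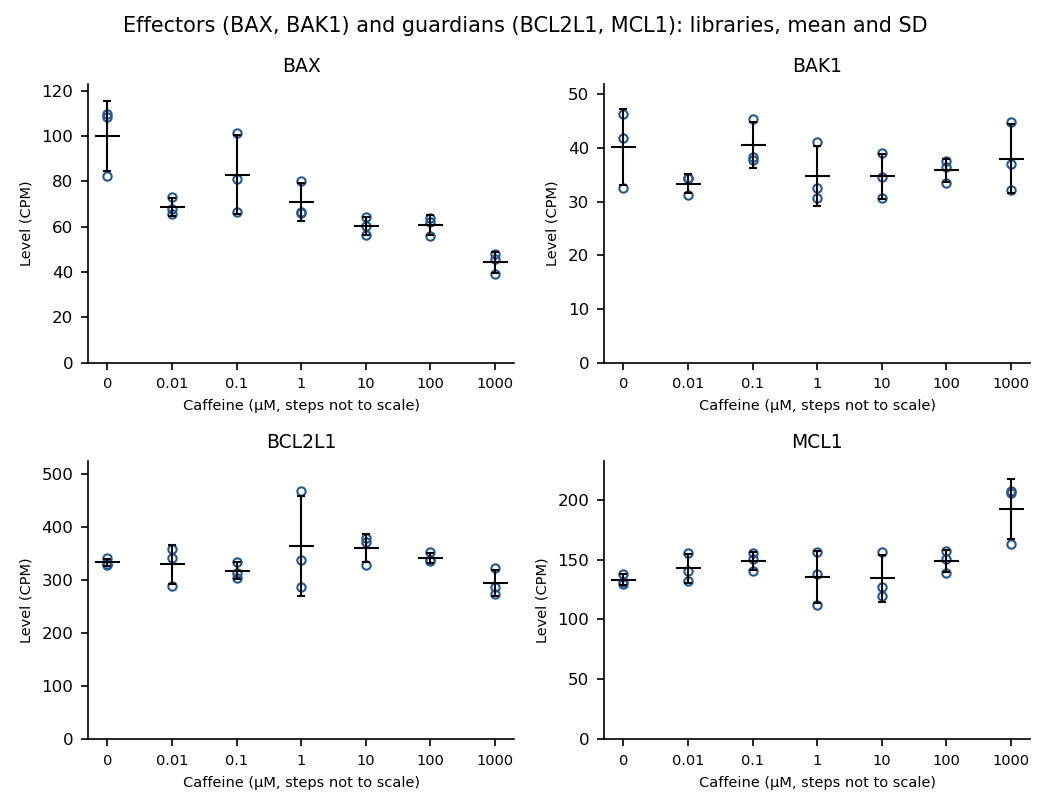
Level (CPM) of the effectors BAX and BAK1 and the guardians BCL2L1 and MCL1 against caffeine dose (µM, equal steps), with 3 libraries per dose as circles and the mean and SD as bars. BAX is lowest and MCL1 highest at 1000 µM, while the BAK1 libraries at 0 and 1000 µM overlap.

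Set against 0 µM dose by dose, BAX, BBC3 and BAD were lower at several doses, and rises passed the test at 100 and 1000 µM. The 6 comparisons share the same 3 control libraries. Over the 15 libraries at 0 to 10 µM, BBC3 and BAD moved together (Pearson r = 0.94), and each did so with BAX (0.75). BCL2L11 moved against BBC3, BAD and BAX in these libraries (r = -0.85, -0.81 and -0.89). The calls of BBC3, BAD, BAX and BCL2L11 are therefore not independent of each other. At 1000 µM, 3 of the 9 members other than BMF were higher (BCL2L11, PMAIP1 and MCL1) and 3 lower (BBC3, BAD and BAX), where 20.6% of the 17468 genes tested were higher and 20.6% lower. The median log2 fold change of the 9 was -0.08 against -0.03 over all genes, and their median absolute change was 0.53 against 0.40. At 100 µM BCL2L11 was higher and BBC3 (log2 -0.78, edgeR adjusted p = 0.0246) and BAX (-0.72, adjusted p = 0.0152) were lower, where 2.74% of genes were higher and 3.27% lower. None of these 3 calls at 100 µM held without library 1 or 2 at 0 µM or without library 2 or 3 at 100 µM, which left 0, and 1 held without library 1 at 100 µM.

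At 10 µM, where 11.3% of genes were higher and 10.7% lower, the members called lower were BAX (log2 -0.73, edgeR adjusted p = 0.00417), BBC3 (-0.64, adjusted p = 0.0176) and BAD (-0.59, adjusted p = 0.0207). Without library 1 or 2 at 0 µM, 1 of these calls was left. BBC3, BAD and BAX were also lower at 0.01 µM (log2 -0.63, -0.61 and -0.54, edgeR adjusted p = 0.0483, 0.0473 and 0.0406), where 2.87% of genes were higher and 2.08% lower. No call was left there without library 1 or 2 at 0 µM or library 1 or 2 at 0.01 µM. At 0.1 and 1 µM 0 of the 9 members and 0% of genes were called with edgeR, with 2 and 4 members at an unadjusted p under 0.05 beside 2651 and 3980 of the 17468 genes, and DESeq2 called 0 and 1. Leaving out library 1 at 1 µM gave 1 call at that dose.

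**Figure D3:**
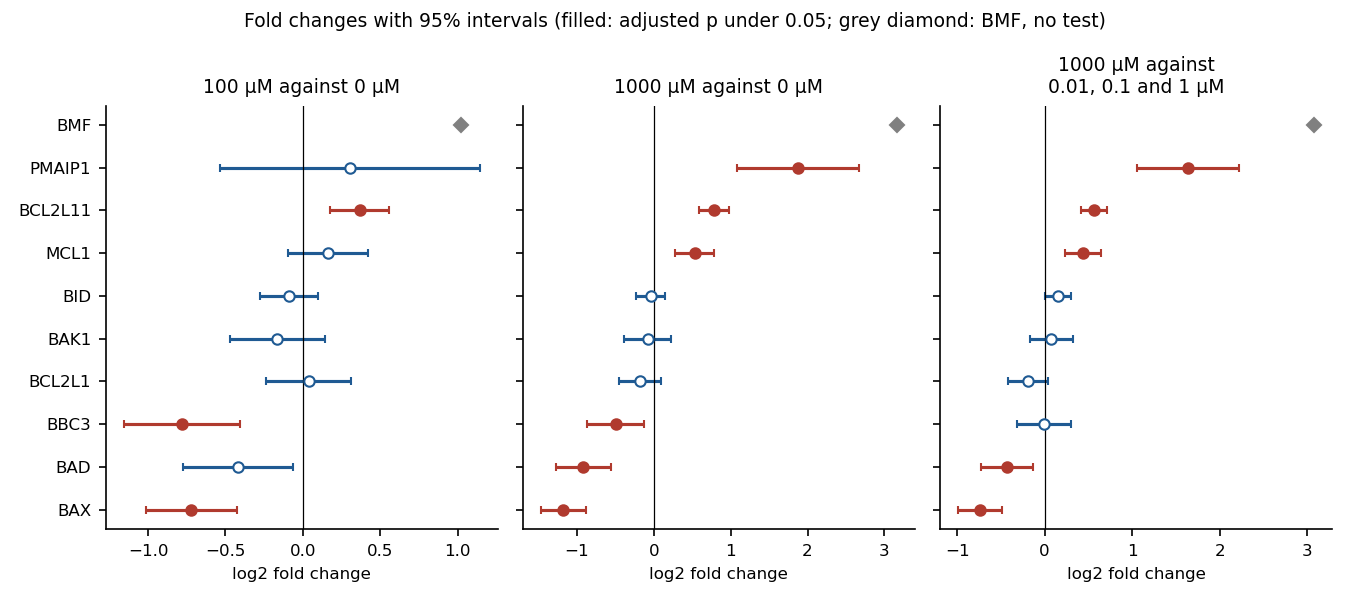
Log2 fold change of the 10 members at 100 and 1000 µM against 0 µM and at 1000 µM against the 3 lowest doses, with 95% intervals as bars. Filled circles passed an adjusted p of 0.05, open circles did not, and grey diamonds give BMF without a test; BBC3 is at -0.49 against 0 µM and at -0.01 against the lowest doses.

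The 3 lowest doses gave a second reference of 9 libraries that holds no control. Against 0.01, 0.1 and 1 µM together, BCL2L11 (log2 0.57 ± 0.07 SE, edgeR adjusted p = 1.18e-05), PMAIP1 (1.64 ± 0.28, adjusted p = 0.000209) and MCL1 (0.43 ± 0.10, adjusted p = 0.00268) rose at 1000 µM, and BAX (-0.74 ± 0.12, adjusted p = 0.000133) and BAD (-0.43 ± 0.14, adjusted p = 0.0286) fell, where 16.2% of genes were higher and 14% lower. All 3 libraries at 1000 µM lay above the 9 for BCL2L11, PMAIP1 and MCL1 and below them for BAX, and 17.7% of all genes showed such separation. BBC3 differed by -0.01 (95% interval -0.31 to 0.30, edgeR adjusted p = 0.983), so its lower level was not seen against the lowest doses. Against the controls its call was lost in 4 of 6 fits with 1 library left out. The fall of BAD rested on single libraries: without library 3 at 1000 µM the adjusted p was 0.231 and without library 3 at 0.01 µM it was 0.0525. At 100 µM against the same 9 libraries 0 of the 9 members passed with edgeR and 0 with DESeq2, where 0.469% of genes were called and 1 member, BAX, had an unadjusted p under 0.05 beside 1770 of the 17468 genes.

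From 100 to 1000 µM BCL2L11 (log2 0.41, edgeR adjusted p = 0.00504) and PMAIP1 (1.57, adjusted p = 0.00748) rose and BAX fell (-0.45, adjusted p = 0.0360), where 8.15% of genes were higher and 6.55% lower. BMF differed 4.41-fold between these doses. MCL1 (0.37, adjusted p = 0.0522) and BAD (-0.50, adjusted p = 0.0555) did not pass, although both did without library 1 at 1000 µM (0.0148 and 0.0493). The BAX call was lost without library 1 or 2 at 100 µM (0.120 and 0.143) or library 2 or 3 at 1000 µM (0.0798 and 0.177). These comparisons share libraries with those against 0 µM.

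A slope was fitted over the dose step, which numbers the doses 0 to 6 in rising order. It called BCL2L11, PMAIP1 and MCL1 higher and BBC3, BAD and BAX lower, where 14.5% of genes were higher and 14.5% lower. Per step, BCL2L11 rose by 0.09 (edgeR adjusted p = 0.000603), PMAIP1 by 0.25 (0.00425) and MCL1 by 0.06 (0.0296) on the log2 scale. BAX fell by 0.16 per step (0.000143), BAD fell by 0.09 (0.0157) and BBC3 fell by 0.08 (0.0459). The slope of BMF was 0.48 per step, and 0.18 without the 1000 µM libraries. Without the 1000 µM libraries 2 of the 6 calls were left, BAX and BBC3, both lower. The BBC3 call was lost in 17 of 21 fits with 1 library left out (adjusted p from 0.00193 to 0.154), MCL1 lost it without library 1 or 2 at 0 µM (0.0550 and 0.0528) or library 2 or 3 at 1000 µM (0.0997 and 0.117), and BAD without library 1 at 0 µM (0.0582) or library 3 at 1000 µM (0.0544).

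Among the 18 treated libraries alone, where 7.05% of 17308 genes were higher and 4.41% lower, BCL2L11 rose by 0.09 on the log2 scale per 10-fold dose (edgeR adjusted p = 0.0127), PMAIP1 rose by 0.30 (0.0211) and BAX fell by 0.14 (0.00687). The slope of BMF was 0.58, and 0.22 without 1000 µM. Without 1000 µM 0 of the 3 calls were left, PMAIP1 lost its call without any 1 of the libraries at 1000 µM (0.0612, 0.0800 and 0.105), and BCL2L11 without library 1 or 3 there (0.0590 and 0.0593).

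Divided by exon length, levels can be compared between members. At 0 µM the order in CPM per kilobase was BCL2L1 (100.5), BAX (38.7), MCL1 (30.4), BAK1 (18.2), BAD (12.6), BID (10.6), BBC3 (3.96), BCL2L11 (3.09), BMF (0.994) and PMAIP1 (0.200), and no neighbours overlapped. BMF kept rank 9 through 100 µM, where it stood at 2.02 ± 0.074 (SD, n = 3) beside 2.30 ± 0.18 for BBC3. At 1000 µM BMF was at 8.92 ± 0.61 CPM per kilobase and rank 6, level with BID at 10.3 ± 0.83 within the spread of the libraries, and above BAD (6.66), BCL2L11 (5.30) and BBC3 (2.81). BCL2L1 stayed the most abundant at 88.8, MCL1, at rank 2 from 0.01 µM upward, had 43.9, and BAX (17.1) met BAK1 (17.2), with overlapping libraries. Lengths are the merged exons of GENCODE v29, so a gene read mainly from its shorter forms is placed too low.

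**Figure D4:**
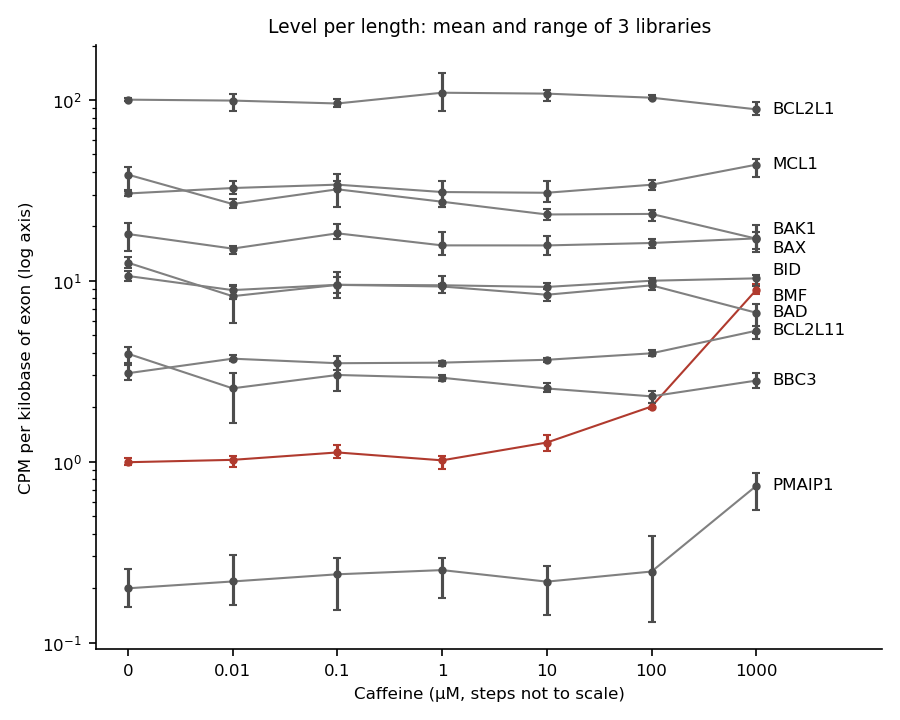
Mean level per kilobase of merged exon (CPM per kb, log axis) of the 10 members against caffeine dose (µM, equal steps), with bars from the lowest to the highest of 3 libraries. BMF, in red, moves from 0.994 at 0 µM to 8.92 at 1000 µM and passes BBC3, BCL2L11 and BAD, while BAX falls from 38.7 to 17.1.

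The genes whose pattern over the 21 libraries was most like that of BMF were found among 12444 genes with a symbol and a mean of at least 1 CPM, by Pearson r on log2 CPM. Those reported here were CYP24A1 (r = 0.993), SLC16A6 (0.985), ERRFI1 (0.984), CYP1A1 (0.983), TBC1D8 (0.977), AQP3 (0.975), GPAT3 (0.975), ANKH (0.972) and HR (0.970). These 9 had their highest mean level at 1000 µM, which comes with picking them for likeness to BMF, itself highest there. CYP1A1, a cytochrome P450 and classical AHR target, had a mean of 44.6 ± 1.6 CPM at 0 µM, 137.9 ± 5.5 at 100 µM and 623 ± 26 at 1000 µM (SD, n = 3). CYP24A1, the vitamin D hydroxylase, had 34.3 ± 1.1, 52.2 ± 0.24 and 148 ± 5.7 CPM. Of the other members, BCL2L11 had r = 0.896 with BMF, and 0.614 without the 1000 µM libraries, and BAX had -0.762. Libraries of 1 dose share that dose, so these r values describe the likeness and carry no p.

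Beyond the 10 members, 5 lists of genes around them were counted at 1000 µM against 0 µM, where 20.6% of all genes tested were higher and 20.6% lower. Median log2 fold changes were -0.08 for the other relatives, -0.22 for the apoptosome list, 0.01 for the death receptors, 0.10 for the partners and 0.0016 for the upstream genes, against -0.03 over all genes tested. With DESeq2 as the test in place of edgeR, the counts of rises and falls were 3 and 2, 4 and 7, 3 and 3, 5 and 4, and 5 and 3. With RLE factors in edgeR they were 3 and 2, 4 and 7, 2 and 3, 5 and 3, and 5 and 3. The share of all genes called is not given for these settings. Of 13 other BCL2 relatives, 8 passed the filter, 2 rose and 2 fell. BCL2L12, an atypical relative, fell from 50.5 ± 6.3 to 28.5 ± 2.1 CPM (SD, n = 3, log2 -0.83, edgeR adjusted p = 5.86e-05). Part of this fall was present at 0.01, 0.1 and 1 µM, where mean BCL2L12 was 36.3, 38.3 and 39.5 CPM. BNIP3L, which marks mitochondria for autophagy, rose (0.64, adjusted p = 0.000708), as did the guardian BCL2L2 (0.55, adjusted p = 0.00414). The BAX-like BOK fell (-0.28, edgeR adjusted p = 0.0335). Mean BOK was 55.0 CPM at 0 µM, 45.7, 49.8 and 48.2 CPM at 0.01, 0.1 and 1 µM and 45.3 CPM at 1000 µM. At 10 and 100 µM it was 43.7 and 44.3 CPM. BCL2 itself was 6.25 ± 0.18 CPM at 0 µM and 5.45 ± 0.46 at 1000 µM and did not pass (-0.20, adjusted p = 0.236; named here for its place in the family, outside the rule for named genes). BCL2A1, BCL2L10, HRK, BCL2L14 and BCL2L15 had 0 to 9 counts per library and were not tested.

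Downstream of the mitochondrion, 4 of 20 genes of the apoptosome, the caspases and the inhibitors of apoptosis rose and 8 fell, beside the 20.6% in each direction over all genes. The mitochondrial protease HTRA2 fell from 53.6 ± 1.7 to 31.8 ± 2.4 CPM (log2 -0.75, edgeR adjusted p = 4.91e-05), and the mitochondrial nuclease ENDOG fell by 1.25 (adjusted p = 9.76e-05). BIRC5 (survivin) fell by 0.78 (adjusted p = 0.000225), the nuclease DFFB fell by 0.60 (adjusted p = 0.000228), and CASP9, the initiator caspase of the apoptosome, fell by 0.45 (adjusted p = 0.000271). The 4 that rose, named after their values were seen, were the inhibitors BIRC6 (0.58, adjusted p = 0.0216), BIRC2 (0.56, adjusted p = 0.00340) and XIAP (0.37, adjusted p = 0.0293) and the apoptosome scaffold APAF1 (0.55, adjusted p = 0.0103). Against the 3 lowest doses BIRC6 differed by -0.01 (adjusted p = 0.962) and APAF1 by 0.31 (adjusted p = 0.0692), and neither passed. Mean ENDOG was 16.3 CPM at 0 µM, 9.67, 11.1 and 11.1 CPM at 0.01, 0.1 and 1 µM and 6.86 CPM at 1000 µM. Mean BIRC5 was 173.5 CPM at 0 µM, 121, 141 and 123 CPM at 0.01, 0.1 and 1 µM and 101 CPM at 1000 µM. At 0.01, 0.1 and 1 µM mean HTRA2 was 41.3, 43.9 and 40.7 CPM. Mean CASP9 was 35.1 CPM at 0 µM, 29.6, 31.8 and 29.7 CPM at those doses and 25.8 CPM at 1000 µM. Part of the falls of ENDOG, BIRC5, HTRA2 and CASP9 was thus present at the lowest doses.

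Of 9 genes of death receptors and their adaptors, 2 rose and 3 fell. The receptor TNFRSF1A rose from 66.3 ± 2.5 to 126.9 ± 6.1 CPM (log2 0.94, edgeR adjusted p = 5.07e-07) and the kinase RIPK1 by 0.65 (adjusted p = 1.41e-06). The adaptor TRADD, which joins these proteins, fell by 1.18 (edgeR adjusted p = 3.14e-06). The receptor FAS fell by 0.45 (edgeR adjusted p = 0.00308) and its adaptor FADD fell by 0.44 (adjusted p = 0.0344). Mean TRADD was 12.5 CPM at 0 µM, 8.26, 9.04 and 8.16 CPM at 0.01, 0.1 and 1 µM and 5.48 CPM at 1000 µM. Mean FADD was 27.7 CPM at 0 µM, 20.8, 26.0 and 23.7 CPM at 0.01, 0.1 and 1 µM and 20.4 CPM at 1000 µM.

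Among 15 genes whose products bind, hold or degrade members, 4 rose and 4 fell. DYNLL1, a dynein light chain that binds BIM, was 194, 220 and 141 CPM at 0 µM and 72.7, 101 and 69.6 CPM at 1000 µM. It fell by 1.19 on the log2 scale (edgeR adjusted p = 0.000131) and at 100 µM it fell by 0.78 (adjusted p = 0.0300). The list also holds the light chain DYNLL2, named outside the rule, which ran from 86.1 to 124 CPM over all libraries. The channel VDAC2, which binds BAK1, fell by 0.55 (adjusted p = 0.0119). The ubiquitin ligase BTRC rose by 0.39 (adjusted p = 0.000945), USP9X, which removes ubiquitin from MCL1, by 0.44 (adjusted p = 0.00336) and HUWE1, which adds it, by 0.47 (adjusted p = 0.0257). Against the 3 lowest doses HUWE1 differed by -0.09 (adjusted p = 0.640) and USP9X by 0.17 (adjusted p = 0.142), and neither passed, while BTRC rose by 0.18 (adjusted p = 0.0449). Only 1 gene of the list was lower against those doses, so at most 1 of the 4 falls passed there.

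Of 14 tested genes of transcription factors and kinases upstream, 5 rose and 3 fell. The FOXO factors induce BCL2L11 in many cells, and FOXO3 rose from 28.3 ± 0.56 to 42 ± 3.2 CPM (log2 0.57, edgeR adjusted p = 0.000174) and FOXO1 from 14.9 ± 1.3 to 27.6 ± 4.8 CPM (0.89, adjusted p = 0.000716). FOXO4, named after its values were seen, rose by 0.49 (adjusted p = 0.00584). At 100 µM the log2 changes of FOXO1, FOXO3 and FOXO4 were 0.56, 0.25 and 0.08 and none passed (adjusted p = 0.0658, 0.109 and 0.752). The stress factor ATF4 rose by 0.68 (adjusted p = 0.000456), the kinase MAPK8 (JNK1) by 0.49 (adjusted p = 0.00133), and E2F1, a cell cycle factor, fell by 0.45 (adjusted p = 0.000667). Against the 3 lowest doses, where 16.2% of all genes were higher and 14% lower, the counts of rises and falls were 2 and 1 for the relatives, 2 and 6 for the apoptosome list, 2 and 3 for the death receptors, 2 and 1 for the partners and 5 and 2 for the upstream genes.

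**Figure D5:**
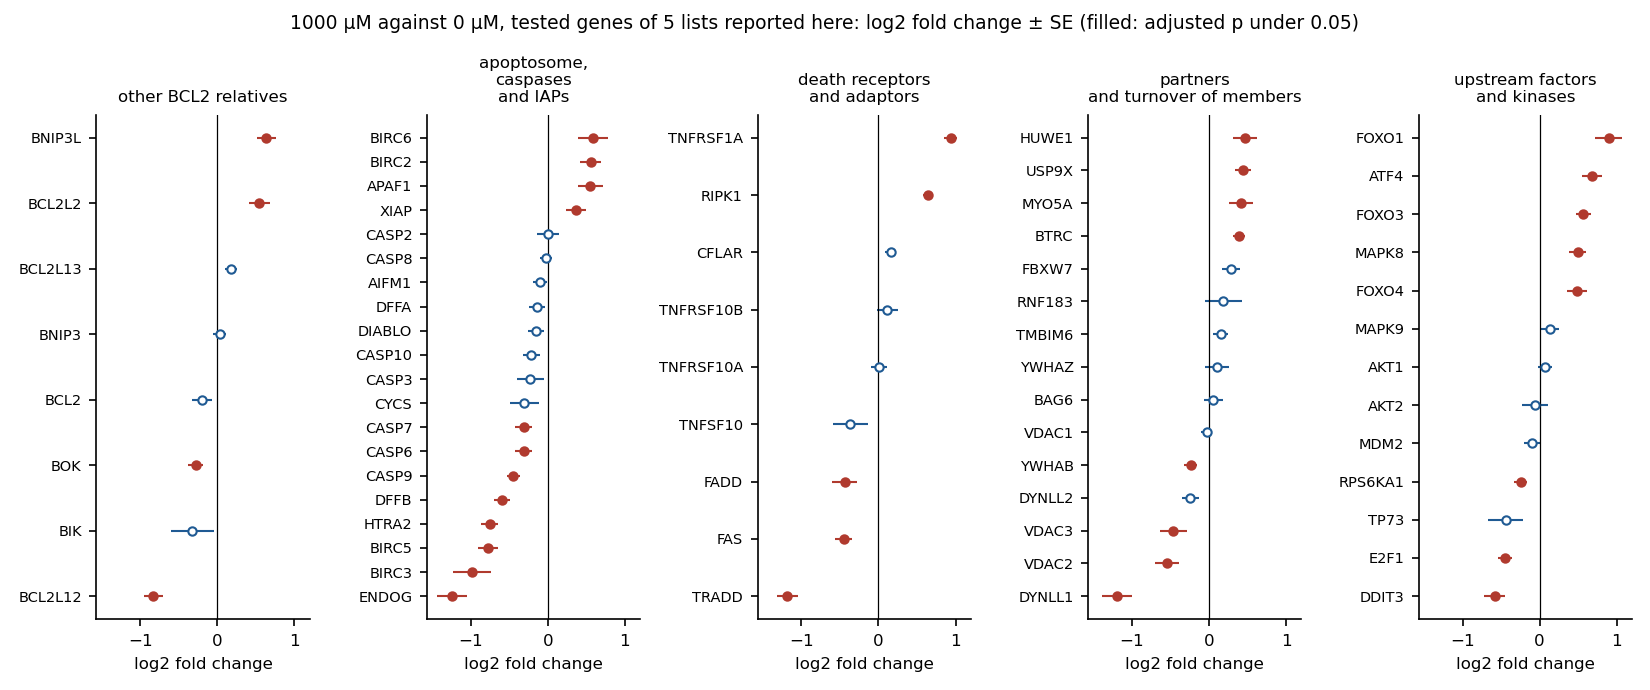
Log2 fold change at 1000 µM against 0 µM of the tested genes of 5 lists that are reported here, with bars of 1 SE; filled circles passed an adjusted p of 0.05. Genes moved in both directions in each list, from ENDOG at -1.25 to TNFRSF1A at 0.94.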

How the data were processed

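Poly(A) RNA of 21 HepG2 libraries was sequenced, and the authors deposited raw read counts for each gene, as whole numbers. Per the submitters' processing notes, HISAT2, DESeq2 and GRCh38 were used; the counting program, the annotation and strand use are not given in the sources used here. The table has 42 columns with values of single samples; 21 match the labels of this series, and the remaining 21 were not used. Of 37637 features, 32937 had Ensembl IDs, of which 24852 matched a symbol; gene positions and lengths are from GENCODE v29, promoters from RefSeq.

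Counts were scaled by TMM, filtered with edgeR's default rule at a minimum count of 10 and tested by quasi-likelihood in edgeR (version 4.0.16, under R 4.3.3). One fit with 7 groups tested 17468 genes, 1617 of them without an Ensembl ID, with 14 residual degrees of freedom and a biological coefficient of variation of 0.162. P-values were Benjamini-Hochberg adjusted over all genes tested, with a threshold of 0.05. SE is the log2 fold change over the square root of F. Folds are fitted values; likeness to BMF used log2 CPM with a prior count of 2. Replicate libraries differed by far more than counting noise (chi-square per gene 5.45 to 207), so none was counted as a copy. No molecular identifiers are stated, so counting floors cover counting error only.

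The members, the gene lists and the tests were chosen with earlier results of these data known. Named genes are all 10 members, up to 5 per list with the smallest p at 1000 µM against 0 µM, and the 10 genes most like BMF. Some genes that the rule or the lists hold are not reported here. Alternatives were DESeq2 1.42.0, RLE factors, no filter, a threshold of 0.01, a fit of only the groups compared, the replicate number as a block, the linear dose, and leaving out 1000 µM or single libraries. The scripts were tested on simulated data. MAP3K5 and PECAM1 were listed and are not analysed here.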

Additional observations from a re-analysis of the deposited data

How the results depend on the processing

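The replicate numbers did not pair the libraries: deviations of libraries with the same number correlated between -0.437 and 0.249 over 63 pairs, and 5 of 21 libraries were closest to their own number. With the replicate block 0 members were called at 0.01 µM instead of 3, and BCL2L11 at 100 µM (adjusted p = 0.0527), BBC3 on the dose step (0.0611) and BAX at 1000 against 100 µM (0.0534) lost their calls. A fit of only the groups compared also left 0 calls at 0.01 µM and took BAD at 1000 µM against the lowest doses to 0.100. At an adjusted p under 0.01 the counts were 0 at 0.01 µM, 1 at 10 µM, 0 at 100 µM, 3 on the dose step and 1 on log10 dose. DESeq2 gave 1 call at 1 µM instead of 0 and 5 at 1000 against 100 µM instead of 3. Leaving out library 3 at 0.1 µM and library 1 at 1 µM together, chosen after seeing the data, gave 1 call at 1 µM. Without 1000 µM the counts were 2 on the dose step and 0 on log10 dose. With 1 library left out, the counts against 0 µM were between 0 and 3 for 0.01 µM, between 0 and 1 for 1 µM, between 1 and 4 for 10 µM, between 0 and 3 for 100 µM and between 5 and 6 for 1000 µM. They were between 3 and 6 on the dose step, between 1 and 3 on log10 dose, between 2 and 5 for 1000 against 100 µM and between 4 and 6 for 1000 µM against the lowest doses, and stayed at 0 at 0.1 µM and at 100 µM against the lowest doses. The cause of these moves was not tested, apart from the smaller number of libraries or the stricter threshold.

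Single members were followed under the alternatives at 100 and 1000 µM against 0 µM, on the slopes, at 1000 against 100 µM and at 1000 µM against the lowest doses; the other comparisons were followed by their counts alone. Among the members followed singly, no value past the threshold changed sign. Uncalled values that did were BBC3 at 1000 µM against the lowest doses, at 0.00014 with RLE factors, 0.0064 with no filter, 0.0045 with DESeq2 and 0.038 without library 3 at 0.1 µM and library 1 at 1 µM; BAK1 on the linear dose, at 5.2e-05; and, without 1000 µM, BID at -0.0086 and BCL2L1 at 0.022 on the dose step, and BAD at 0.021, BAK1 at -0.0037, BCL2L1 at 0.029 and MCL1 at -0.0025 on log10 dose. With 1 library left out, PMAIP1 at 100 µM ran from -0.18 to 0.61, BID at 1000 µM from -0.0751 to 0.0496 and BAK1 there from -0.197 to 0.0350. On the dose step BID ran from -0.0011 to 0.016, BAK1 from -0.024 to 0.0043 and BCL2L1 from -0.014 to 0.0036. On log10 dose BAK1 ran from -0.0086 to 0.023 and BCL2L1 from -0.027 to 5.2e-05. At 1000 against 100 µM BAK1 ran from -0.0391 to 0.192, and at 1000 µM against the lowest doses from -0.0547 to 0.182, where BBC3 ran from -0.0845 to 0.0708. With 10 to 28 counts per library below 1000 µM, PMAIP1 was the member with the least depth.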
